A study of Gallus gallus with 28 samples.

Results

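The genes described here encode the BMP, TGF-beta and activin signalling system of the chicken: its ligands, receptors, SMAD proteins, secreted regulators and the ID genes that it induces. They were taken by gene name from a table of expression in the basilar papilla, the auditory epithelium of the bird. Of the 17684 rows of that table, 41 carry a name of this system, and 34 of the 41 reached the minimum level for testing. The study followed the papilla over 8 times after streptomycin, an antibiotic of the aminoglycoside class that is toxic to hair cells. Its title speaks of hair cell regeneration. RNA sequencing libraries of 28 samples were used. In 15 samples the dissected papilla had been exposed to streptomycin for 24 h and then left to recover. The titles of the other 13 samples call them control, and their label gives no treatment. Sampling ran from 0 h to 168 h at steps of 24 h, so there were 16 groups of treatment and time. Pairs of samples stood in 12 groups, while the treated group at 96 h and the control groups at 72, 96 and 120 h had 1 sample each. Early means 0, 24 and 48 h, with 6 treated and 6 control samples, and late means 120, 144 and 168 h, with 6 treated and 5 control samples. Age, sex and strain of the chickens are not given in the labels, and neither is the drug dose. The series text calls the 2 samples of a time biological, but does not say whether papillae were pooled.

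BMPs, TGF-betas and activins are secreted dimers that bind pairs of type I and type II receptor kinases. In the usual scheme BMP receptors phosphorylate SMAD1, SMAD5 and SMAD9, whereas TGF-beta and activin receptors phosphorylate SMAD2 and SMAD3, and the SMADs then carry the signal into the nucleus. Noggin and follistatin hold ligands away from receptors, SMAD6 and SMAD7 block the pathway inside the cell, and several of these inhibitors are themselves induced by it. In the inner ear BMP signalling takes part in forming the sensory patches, and in the mature avian papilla BMP4 transcripts have been described in hair cells.

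Values are RPKM, reads per kilobase of gene scaled to the reads of the library as the authors computed them, so levels of different genes can be set beside each other. Differences are treated minus control, fitted with limma on log2(RPKM + 1) and given ± standard error. A gene is said to pass, and to rise or fall, where its Benjamini-Hochberg adjusted p over all 12195 features tested was under 0.05. On this scale the change of genes with low values is understated. Library depth ranged between 16.48 M and 38.17 M alignments, and the 2 samples of a group correlated at 0.971 to 0.988 across genes. Counts per gene were not in the table, so counting error could not be given.

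Markers of several cell types differed between treated and control papillae. All 8 hair cell markers were lower over all times, and their summed level in the early libraries was 52.2 to 71.9 RPKM in treated and 196 to 321.9 RPKM in control papillae. Late sums of the same markers were 31.5 to 41.8 RPKM in treated and 68.8 to 138.5 RPKM in control papillae. All 8 markers fell between the early and the late controls. In treated papillae 4 of the 8 rose between the windows (GFI1, MYO7A, OTOF and POU4F3) and 2 fell (ATP2B2 and MYO6). The treated sums are mostly MYO6, whose mean over all treated libraries was 38.3 RPKM, beside 3.09 RPKM or less for each other marker. Of 5 supporting cell markers measured, 4 rose over all times, with early sums of 516.3 to 879.6 RPKM in treated and 88.2 to 485.2 RPKM in control papillae. Late sums overlapped, at 136.7 to 228.6 RPKM in treated and 106.3 to 169 RPKM in control papillae, and 2 of the 5 rose in that window. All 5 leukocyte markers fell (late sums 48.3 to 98.0 RPKM in treated and 122.2 to 173.4 RPKM in control papillae), as did all 3 neuron markers tested. Mesenchyme markers, of which 3 of 8 fell and none rose, had early sums of 20.1 to 134 RPKM in treated and 52.9 to 204.1 RPKM in control papillae. Of 5 cartilage markers tested over all times, 4 fell and COL2A1 rose (0.70 ± 0.20), with early sums of 41.2 to 75.6 RPKM in treated and 44.2 to 105.3 RPKM in control papillae. Of the glia markers, SOX10 rose early by 0.99 ± 0.09 and fell late by 0.34 ± 0.09, and S100B fell over all times by 0.40 ± 0.13. The endothelial marker CDH5 fell over all times by 0.61 ± 0.10 and KDR did not pass. Of 3 smooth muscle markers, TAGLN fell by 1.06 ± 0.19, MYH11 rose by 0.35 ± 0.09 and ACTA2 did not pass. Among the markers of these types, MATN1 was listed at 0 in 22 of 28 libraries, STMN2 in 20, SNAP25 in 5, and TMC2, SLC17A8, CHAD and TEK in 1 each. The part that these changes have in the results below was not tested.

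Many genes of this system differed between treated and control papillae, in both directions, as did many features of the whole table. Over all times 7 of the 34 members tested rose and 13 fell, or 58.8% in all, beside 41.9% of all features (20.2% higher and 21.7% lower). At 0 to 48 h, 10 rose and 11 fell, or 61.8%, beside 51.1% of all features (27.6% higher and 23.5% lower). At 120 to 168 h, 1 rose and 7 fell, or 23.5%, beside 19.4% of all features (4.31% higher and 15.1% lower). With the replicate number as a block within each time, 11 fell late. The count of rises over all times was 4 without the treated library 2 of 24 h. The late rise was 0 without the control library of 120 h and 2 without the treated library 1 of 120 h, and the late falls were 4 without the treated library 1 of 168 h. BMP3 and BMP5 reached the minimum level through treated libraries, so that their inclusion favours a rise. Without them, 6 of 32 members rose and 13 fell over all times, 10 rose and 11 fell early, and 0 rose and 7 fell late, so the late rise is BMP3 alone. The early and late shares of the members were not far above those of the whole table, and no test of the list was made. The members' median difference was -0.04 over all times, 0.06 early and -0.16 late, and the median over all features was 0.01, 0.03 and -0.07 in the same comparisons. The 7 members below the minimum level were not tested. Among them were the receptors ACVR1C (0.0507 to 0.453 RPKM) and BMPR1B (0.0657 to 0.598 RPKM), the inhibin subunit INHA (0 to 0.685 RPKM), the ligands BMP10 (0 to 0.339 RPKM) and BMP15 (0 to 0.11 RPKM), and the antagonist GREM1 (0 to 0.947 RPKM). BMP2K, which carries a BMP name but is a protein kinase and no ligand, rose at 0 to 48 h by 0.31 ± 0.09 (adjusted p = 0.00963). Genes of the system with no row of that name, among them TGFB1, BMP6, BMP8A, SMAD4, CHRD and ID3, were not analysed here.

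**Figure D1:**
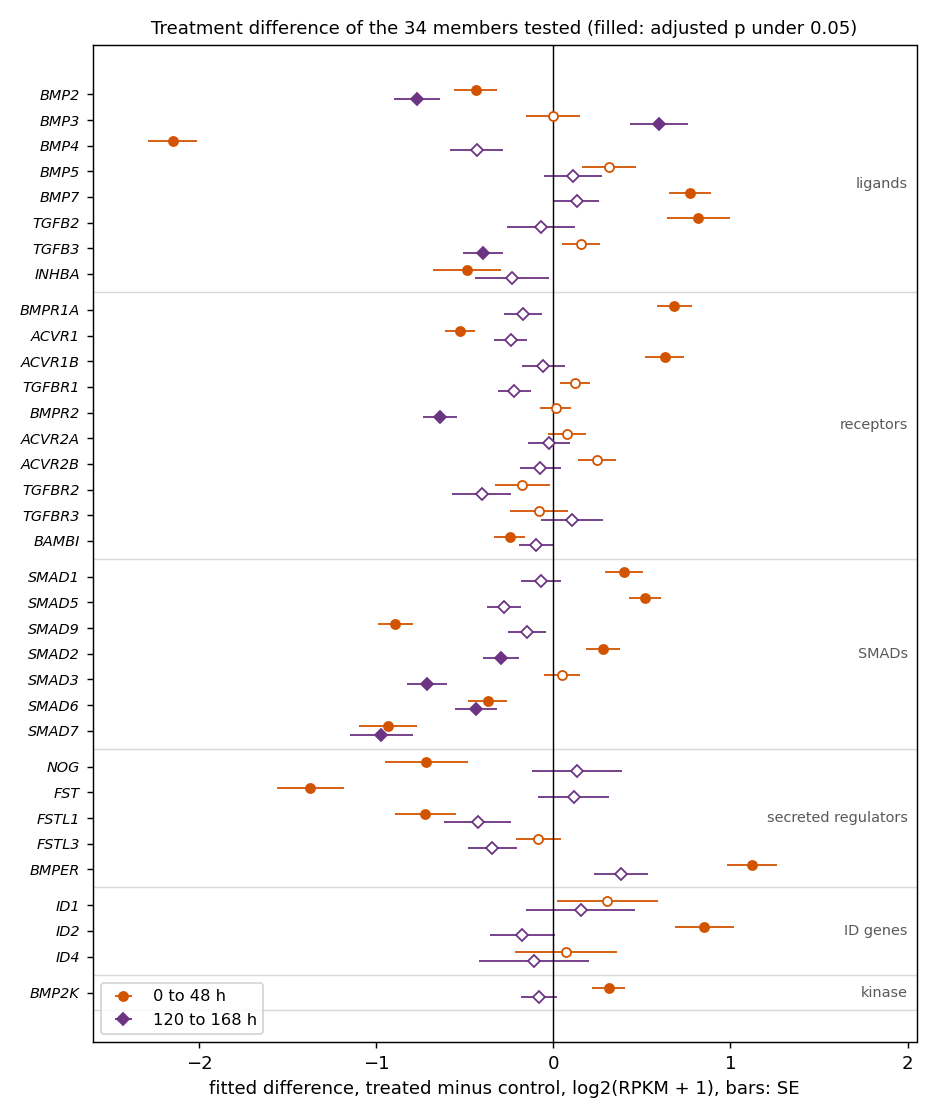
Fitted treated minus control difference (x axis, log2(RPKM + 1), bars show the standard error) of each of the 34 members tested (y axis, grouped by role), at 0 to 48 h (circles) and at 120 to 168 h (diamonds). Filled symbols have an adjusted p under 0.05: BMP4 and FST lie farthest to the left and BMPER farthest to the right early, and SMAD7 and BMP2 are filled on the left in both windows.

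Among the ligands BMP4 stood out. BMP4, one of the classical BMPs, measured 2.33 to 5.04 RPKM in the 6 early treated libraries (median 3.90) and 12.7 to 26.8 RPKM in the 6 early control libraries (median 19.1). The groups did not overlap, as for 2 of the 34 members in this direction and 7.28% of all features. Its fitted difference was -2.15 ± 0.14 at 0 to 48 h (adjusted p = 1.47e-09), and already at 0 h the level was 5.04 and 4.70 RPKM in treated and 25.2 and 26.8 RPKM in control papillae. At 72 h the treated pair held 5.16 and 4.04 RPKM and the control 20.2 RPKM. Late treated libraries ranged from 4.17 to 7.44 RPKM (median 4.78), and late controls held 8.61 RPKM at 120 h, 7.56 and 5.995 RPKM at 144 h, and 5.55 and 6.98 RPKM at 168 h. These groups overlapped, and the late difference of -0.43 ± 0.15 missed the threshold (adjusted p = 0.0527), which the replicate block brought to 0.048. The narrowing came mostly from the controls, where BMP4 fell by 1.33 ± 0.15 between the windows, while in treated papillae it rose by 0.39 ± 0.14. The rise lost its call without any 1 of 6 treated libraries, the lowest value being 0.28 (adjusted p = 0.101). The difference between the windows was itself 1.72 ± 0.20 (adjusted p = 1.49e-05). In a bulk sample fewer BMP4-bearing cells and less BMP4 RNA per cell cannot be told apart.

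**Figure D2:**
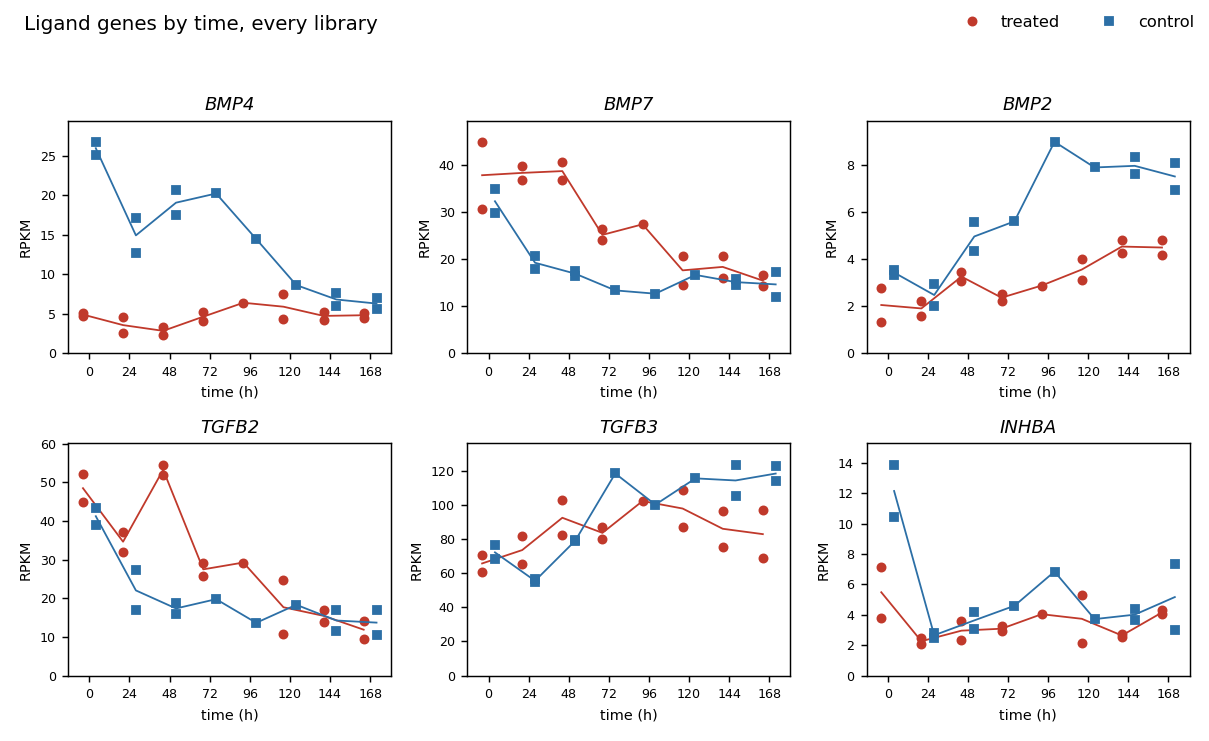
RPKM (y axis, linear from 0) of 6 ligand genes against time (x axis, h) in every library, treated as circles and control as squares, with lines through the group means. Control BMP4 starts at 25.2 and 26.8 RPKM and ends at 5.55 and 6.98 RPKM, whereas treated BMP4 stays between 2.33 and 7.44 RPKM, and treated BMP7 and TGFB2 lie above the controls at 48 h.

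BMP7 moved the other way. This ligand, which can pair with BMP2 or BMP4 in heterodimers, measured 30.7 to 45.0 RPKM in early treated libraries (median 38.4) and 16.4 to 34.8 RPKM in early control libraries (median 19.2). The ranges met at 0 h, where treated papillae held 30.7 and 45.0 RPKM and controls 29.8 and 34.8 RPKM. At 24 h the level was 36.8 and 39.9 RPKM in treated and 20.6 and 17.8 RPKM in control papillae, and at 48 h it was 40.6 and 36.9 RPKM against 16.4 and 17.4 RPKM. In treated papillae the level at 24 and 48 h was thus about that of 0 h, and in controls it was lower than at 0 h. The early difference was 0.77 ± 0.12 (adjusted p = 4.01e-05), and that over all times 0.56 ± 0.11 (adjusted p = 0.000412). Late levels overlapped, at 14.2 to 20.8 RPKM in treated and 11.99 to 17.2 RPKM in control papillae, and the late difference was 0.13 ± 0.13 (adjusted p = 0.51).

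BMP2 was lower in treated papillae in all 15 comparisons of a library with its control mean. Early levels were 1.33 to 3.44 RPKM in treated (median 2.46) and 1.98 to 5.54 RPKM in control papillae (median 3.41), a difference of -0.44 ± 0.12 (adjusted p = 0.00617) that was -0.37 with an adjusted p of 0.0503 on 24 and 48 h alone. At 96 h it was 2.86 RPKM in the treated and 8.96 RPKM in the control library. In the late window the groups were apart, with 3.11 to 4.79 RPKM in treated papillae (median 4.21) and 7.87 RPKM at 120 h, 8.31 and 7.58 RPKM at 144 h and 6.90 and 8.08 RPKM at 168 h in controls. Late groups did not overlap in this direction for 3 of the 34 members and 8.7% of all features. The late difference of BMP2 was -0.77 ± 0.13 (adjusted p = 0.000688). BMP2 rose with time in both arms, by 0.64 ± 0.12 in treated and 0.97 ± 0.13 in control papillae.

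The make-up of the BMP ligand transcripts measured here therefore differed more than their sum. Summed over the 7 BMP ligand genes in the table, early libraries held 39.7 to 52.0 RPKM (median 46.9) in treated and 36.4 to 66.8 RPKM (median 41.8) in control papillae. BMP4 made up 5.12% to 12.7% of that sum (median 7.85%) in treated and 35.0% to 47.2% (median 42.9%) in control papillae. BMP7 made up 77.5% to 88.2% (median 82.6%) in treated and 37.4% to 56.5% (median 47.7%) in control papillae. In the late window BMP2 supplied 11.7% to 19.2% (median 14.3%) in treated and 23.2% to 27.5% (median 25.6%) in control papillae. BMP4 then supplied 14.3% to 27.98% in treated and 20.3% to 25.4% in control papillae, so that its shares overlapped. These shares are of transcripts per gene length, not of protein, and are given without a test. The ligand genes BMP6 and BMP8A had no row of that name, so the sums and shares leave them out.

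**Figure D3:**
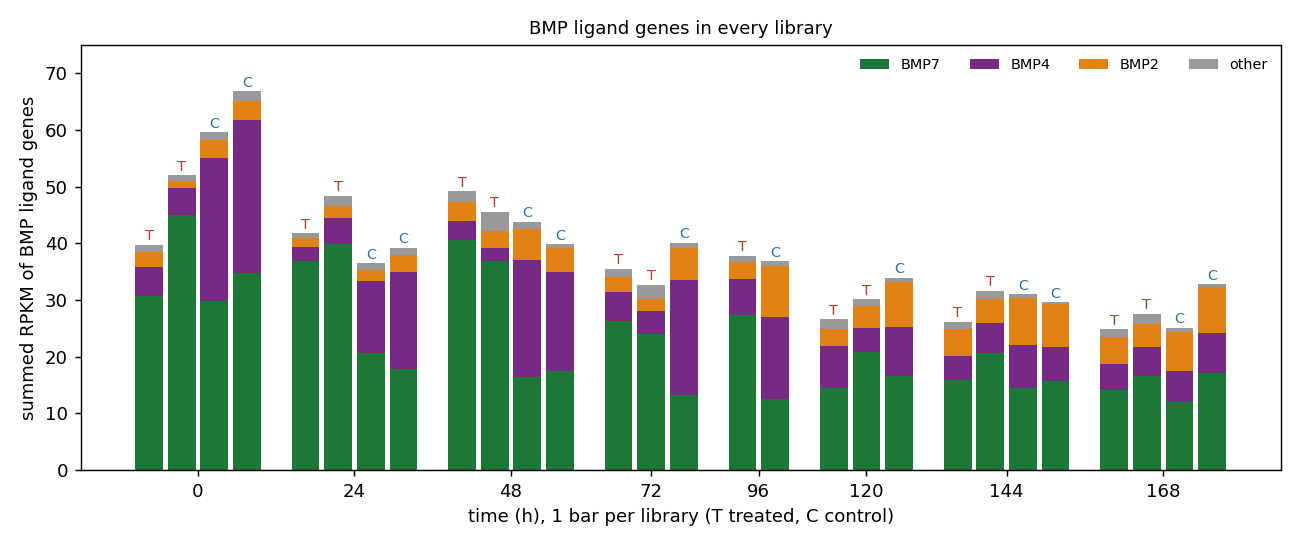
Summed RPKM of the BMP ligand genes (y axis) in every library, ordered by time (x axis, h; T treated, C control), split into BMP7, BMP4, BMP2 and the others. The BMP4 band is 5.12% to 12.7% of the bar in early treated libraries and 35.0% to 47.2% in early control libraries, and the BMP2 band is wider in late controls.

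Of the TGF-beta ligands TGFB2 was higher in treated than in control papillae early. It measured 32.1 to 54.6 RPKM in early treated libraries (median 48.4) and 15.9 to 43.4 RPKM in early control libraries (median 23.0), with the control values above 30 RPKM both at 0 h. At 48 h it was 54.6 and 51.9 RPKM in treated and 18.8 and 15.9 RPKM in control papillae. Its means at 0, 24 and 48 h were 48.5, 34.6 and 53.2 RPKM in treated papillae. In controls they were 41.2, 22.0 and 17.4 RPKM, so the control level at 24 and 48 h was lower than at 0 h. The difference was -0.07 ± 0.19 late (adjusted p = 0.84), against 0.82 ± 0.18 early (adjusted p = 0.00102). TGFB3, at 54.8 to 123.7 RPKM the most abundant of the ligand genes tested in every library, fell late by 0.40 ± 0.11 (adjusted p = 0.0214), against an early difference of 0.16 ± 0.11. Its late levels were 69.0 to 108.6 RPKM in treated and 105 to 123.7 RPKM in control papillae, overlapping in 1 treated library, and the call was lost without any 1 of 4 libraries (lowest size -0.31).

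The activin subunit INHBA was lower in treated papillae over all times (-0.40 ± 0.13, adjusted p = 0.014). The gap was widest at 0 h, with 7.15 and 3.82 RPKM in treated and 13.9 and 10.4 RPKM in control papillae. Its early difference of -0.49 ± 0.19 was -0.20 (adjusted p = 0.506) without 0 h. BMP5 reached 1 RPKM in 4 treated libraries and 1 control library, and BMP3 in 3 treated libraries and no control library. BMP3 measured 0.413 to 1.16 RPKM in late treated libraries and 0 to 0.349 RPKM in late controls, a difference of 0.60 ± 0.16 (adjusted p = 0.0164) that was 0.56 (adjusted p = 0.0517) without the control library of 120 h. These libraries did not overlap, as for 1 of the 34 members and 2.72% of all features in this direction. BMP5 rose by 0.31 ± 0.12 over all times (adjusted p = 0.0443), a call lost under 20 of 35 alternatives, the replicate block among them (0.29, adjusted p = 0.0534). Both genes were kept for testing through treated libraries, which favours a rise, so neither call nor the lack of overlap is support for one.

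The receptors did not move in 1 direction. Of 10 tested, BMPR1A and ACVR1B rose and ACVR1, BMPR2 and TGFBR2 fell over all times. BMPR1A, a type I receptor for BMPs, measured 18.0 to 21.7 RPKM in early treated libraries (median 19.3) and 8.73 to 14.2 RPKM in early controls (median 12.3). ACVR1B, a type I receptor for activins, measured 13.3 to 18.8 RPKM in early treated libraries (median 17.0) and 7.76 to 13.0 RPKM in early controls (median 10.7). Neither pair of groups overlapped, and both genes passed at each of 0, 24 and 48 h, the 0 h call of ACVR1B (adjusted p = 0.0463) being lost without any 1 of 16 libraries and that of BMPR1A after rescaling by the median of ratios (adjusted p = 0.0531). In this direction 4 of the 34 members did not overlap, beside 10.1% of all features. Early differences were 0.68 ± 0.10 for BMPR1A (adjusted p = 2.3e-05) and 0.63 ± 0.11 for ACVR1B (adjusted p = 0.000165). By the late window both ranges overlapped, with 11.98 to 15.7 RPKM of BMPR1A in treated and 11.9 to 16.8 RPKM in control papillae. The late differences were -0.17 ± 0.11 for BMPR1A and -0.06 ± 0.12 for ACVR1B, neither of which passed. Over all times BMPR1A rose by 0.29 ± 0.10 (adjusted p = 0.0256), a call lost without the treated library 2 of 24 h (0.25, adjusted p = 0.0506).

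ACVR1, a type I receptor shared by BMPs and activins, was the most abundant receptor gene. Its fitted difference changed sign between 0 and 24 h, although that at 0 h did not pass. At 0 h it measured 43.2 and 38.5 RPKM in treated and 35.7 and 32.1 RPKM in control papillae. At 24 h the values were 28.2 and 31.4 RPKM in treated and 54.9 and 58.3 RPKM in control papillae, and at 48 h they were 28.3 and 29.6 RPKM against 60.6 and 52.0 RPKM. Fitted differences at these times were 0.26 ± 0.15, -0.91 ± 0.15 and -0.93 ± 0.15, of which the last 2 passed. The mean difference over the 3 early times, -0.53 ± 0.09 (adjusted p = 8.19e-05), therefore averages opposite signs. Later the arms overlapped, and the level was 44.9 to 53.3 RPKM in treated and 48.2 to 65.1 RPKM in control papillae from 120 h on (-0.24 ± 0.09, adjusted p = 0.0801, and 0.0358 with the replicate block within each time).

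BMPR2, a type II receptor for BMPs, differed late and not early. Early levels were 6.71 to 9.73 RPKM in treated (median 8.11) and 5.31 to 11.1 RPKM in control papillae (median 8.38), a difference of 0.01 ± 0.09. In the late window treated libraries held 5.55 to 7.65 RPKM (median 6.22), whereas controls held 11.5 RPKM at 120 h, 10.3 and 10.7 RPKM at 144 h, and 9.79 and 9.03 RPKM at 168 h. These groups did not overlap, as for 3 of 34 members and 8.7% of all features in this direction, and BMPR2 fell by 0.64 ± 0.10 (adjusted p = 0.000221). The difference between the windows was -0.65 ± 0.13 (adjusted p = 0.00117), beside a median of -0.12 over all features in that comparison.

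TGFBR3, the co-receptor betaglycan, rose at 0 h (16.5 and 17.3 RPKM in treated and 7.96 and 5.38 RPKM in control papillae, 1.24 ± 0.28, adjusted p = 0.00367). At 48 h it fell, with 8.88 and 5.97 RPKM in treated and 16.9 and 12.2 RPKM in control papillae (-0.89 ± 0.28, adjusted p = 0.0252). Each of these single-time calls rests on 2 libraries an arm. Without the control library 2 of 0 h the first was 0.999 (adjusted p = 0.0548). TGFBR2, the type II receptor of the TGF-betas, fell by 0.33 ± 0.13 over all times (adjusted p = 0.0403, and 0.0806 with the replicate block within each time). At 0 h TGFBR2 was higher in treated papillae, at 15.4 and 12.2 RPKM against 9.59 and 8.15 RPKM in controls. BAMBI, a decoy receptor without a kinase, fell early by 0.25 ± 0.09. At 0 h BAMBI measured 14.9 and 14.6 RPKM in treated and 13 and 13.5 RPKM in control papillae. Neither gene passed at 0 h, and both of these mean differences average opposite signs. The receptors TGFBR1, ACVR2A and ACVR2B did not pass over all times, early or late, with differences of -0.22 to 0.25.

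**Figure D4:**
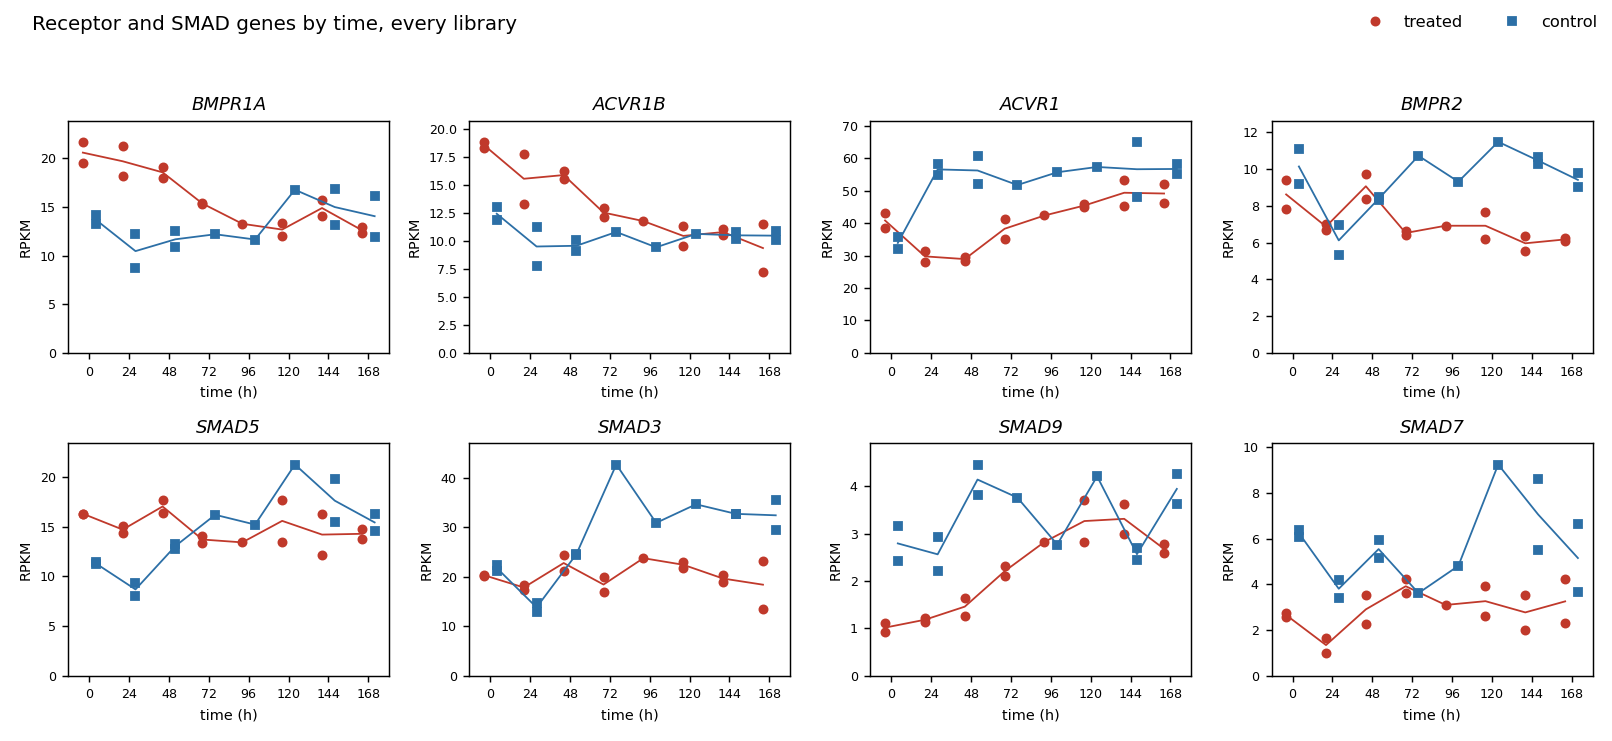
RPKM (y axis, linear from 0) of 4 receptor and 4 SMAD genes against time (x axis, h) in every library, treated as circles and control as squares, with lines through group means. Treated BMPR1A, ACVR1B and SMAD5 lie above control at 0 to 48 h, treated SMAD9 lies below, and treated BMPR2 and SMAD3 lie below control from 72 h on.

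The SMADs of the BMP branch moved apart from each other. SMAD5 measured 14.4 to 17.7 RPKM in early treated libraries (median 16.3) and 8.02 to 13.3 RPKM in early controls (median 11.3), without overlap. SMAD9 measured 0.919 to 1.65 RPKM in early treated libraries (median 1.18) and 2.20 to 4.46 RPKM in early controls (median 3.04), also without overlap. The more abundant of the pair thus rose by 0.52 ± 0.09 (adjusted p = 0.000159) and the less abundant fell by 0.89 ± 0.10 (adjusted p = 1.34e-06). Early groups did not overlap, with treated higher, for 4 of the 34 members and 10.1% of all features. With treated lower, this was so for 2 of the 34 members and 7.28% of all features. SMAD1 rose early by 0.40 ± 0.11 (adjusted p = 0.00428). In treated papillae SMAD9 rose with time. The 2 libraries of a time held 0.919 and 1.11 RPKM at 0 h, 1.26 and 1.65 RPKM at 48 h, 2.31 and 2.10 RPKM at 72 h, and 3.70 and 2.83 RPKM at 120 h. The rise between the windows was 0.88 ± 0.10 (adjusted p = 9.89e-07), while in controls the change was 0.14 ± 0.11. The late difference between the arms was -0.15 ± 0.11 for SMAD9 and -0.28 ± 0.10 for SMAD5 (adjusted p = 0.056), and neither passed, although SMAD5 did with the replicate block (-0.26, adjusted p = 0.0393).

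In the TGF-beta branch SMAD3 fell late. Its early levels were 17.4 to 24.5 RPKM in treated (median 20.3) and 12.9 to 24.7 RPKM in control papillae (median 21.8). Late levels were 13.5 to 23.3 RPKM in treated papillae (median 21.1), against 34.7 RPKM at 120 h, 32.7 and 32.8 RPKM at 144 h, and 35.5 and 29.4 RPKM at 168 h in controls. Between the windows treated SMAD3 changed by -0.02 ± 0.10, while control SMAD3 rose by 0.74 ± 0.11. The late difference was -0.71 ± 0.11 (adjusted p = 0.000334), and at 72 h the gap was 20.0 and 16.9 RPKM in treated against 42.7 RPKM in the control library. SMAD2 fell by 0.30 ± 0.10 late, against a rise of 0.28 ± 0.09 early, but its late call (adjusted p = 0.0493) was lost under 26 alternatives.

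Both inhibitory SMADs were lower in treated papillae. SMAD7 measured 1.01 to 3.55 RPKM in early treated libraries (median 2.42) and 3.42 to 6.40 RPKM in early controls (median 5.55), a difference of -0.93 ± 0.17 (adjusted p = 0.000176). Late levels were 2.01 to 4.22 RPKM in treated papillae (median 3.06), against 9.25 RPKM at 120 h, 8.62 and 5.52 RPKM at 144 h, and 3.67 and 6.63 RPKM at 168 h in controls. SMAD7 thus fell in both windows (late -0.97 ± 0.18, adjusted p = 0.00128), with 1 treated library inside the control range early and 2 late. The RefSeq gene table lists a further gene, SMAD7B, that has no row here, and whether the SMAD7 row shares reads with it is not known. SMAD6 fell by 0.44 ± 0.12 late and by 0.37 ± 0.11 early, was lower in all 15 comparisons of a treated library with its control mean, and lost its late call without any 1 of 3 libraries.

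Among the secreted regulators, BMPER rose and FST, NOG and FSTL1 fell early. BMPER, a BMP-binding protein known both to block and to promote BMP action, measured 5.06 to 7.76 RPKM in early treated libraries (median 6.86) and 1.14 to 4.11 RPKM in early controls (median 2.87). From 48 to 96 h the control level was low, while the treated level was not. At 48 h it was 7.57 and 7.67 RPKM in treated and 1.14 and 1.35 RPKM in control papillae, and at 96 h 6.46 RPKM in the treated and 0.78 RPKM in the control library. Fitted differences were 1.94 ± 0.24 at 48 h, 1.78 ± 0.30 at 72 h and 2.07 ± 0.34 at 96 h, each of which passed, while 0.43 ± 0.24 at 0 h did not. From 120 h on the ranges overlapped, at 1.95 to 5.14 RPKM in treated and 1.61 to 2.43 RPKM in control papillae (0.38 ± 0.15, adjusted p = 0.0873, and 0.0381 after rescaling by the median of ratios).

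FST, follistatin, an antagonist of activins and some BMPs, fell at 24 and 48 h. At 0 h it measured 5.29 and 3.14 RPKM in treated and 2.98 and 4.08 RPKM in control papillae. At 24 h the values were 2.11 and 1.60 RPKM in treated and 11.4 and 17.2 RPKM in control papillae, and at 48 h they were 3.16 and 3.46 RPKM against 16.7 and 13.5 RPKM. The arms overlapped at 0 h and were far apart at 24 and 48 h, when the control level was above that of 0 h and the treated level was not. Fitted differences were 0.18 ± 0.32 at 0 h, -2.40 ± 0.32 at 24 h (adjusted p = 2.83e-05) and -1.89 ± 0.32 at 48 h (adjusted p = 0.000401). At 72 h the treated libraries had reached 11.8 and 6.03 RPKM beside 11.6 RPKM in the control, and the late difference was 0.11 ± 0.20. Over all times FST fell by 0.62 ± 0.24 (adjusted p = 0.0384), a call lost with the replicate block within each time (-0.60, adjusted p = 0.102) and without any 1 of 11 libraries in turn.

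NOG, noggin, a BMP antagonist, was scarce. It measured 0.224 to 0.671 RPKM in early treated libraries (median 0.476) and 0.559 to 2.28 RPKM in early controls (median 1.45), a difference of -0.72 ± 0.23 (adjusted p = 0.0167). Without the control library 2 of 24 h this was -0.54 (adjusted p = 0.068). Late NOG was 0.867 to 3.18 RPKM in treated and 0.732 to 2.12 RPKM in control papillae, and did not pass. FSTL1, a follistatin-like protein abundant in connective tissue, was lower in all 15 comparisons of a treated library with its control mean (-0.61 ± 0.12 over all times, adjusted p = 0.000199). Its early levels were 15.8 to 48.1 RPKM in treated and 28.5 to 66.4 RPKM in control papillae, and it rose with time in both arms, by 1.501 ± 0.17 in treated and 1.21 ± 0.19 in controls. Mesenchyme markers, whose part in this was not tested, also rose with time, 8 of 8 in treated and 5 of 8 in control papillae. FSTL3, an activin-binding relative of follistatin, fell by 0.28 ± 0.10 over all times (adjusted p = 0.0248), which became -0.22 (adjusted p = 0.0801) without the control library of 72 h.

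**Figure D5:**
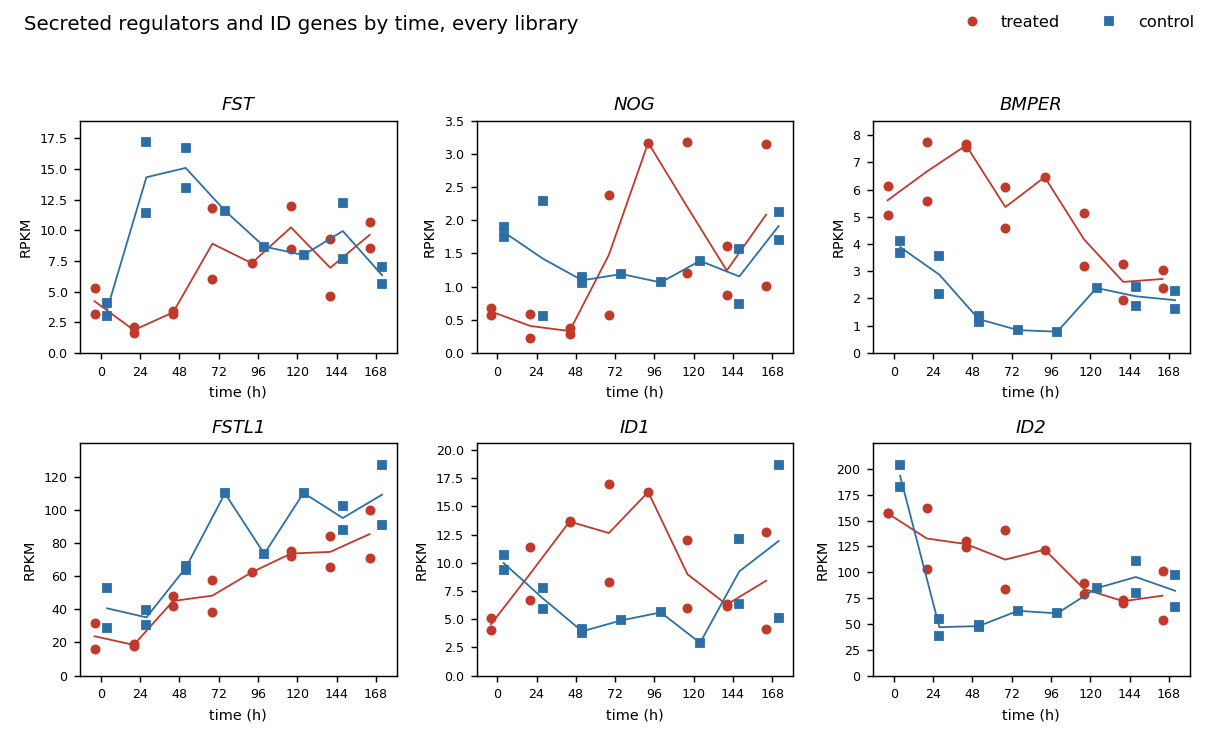
RPKM (y axis, linear from 0) of 4 secreted regulator and 2 ID genes against time (x axis, h) in every library, treated as circles and control as squares, with lines through group means. At 48 h treated FST is 3.16 and 3.46 RPKM beside control values of 16.7 and 13.5 RPKM, and treated BMPER is 7.57 and 7.67 RPKM beside control values of 1.14 and 1.35 RPKM.

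The ID genes encode inhibitors of basic helix-loop-helix factors and are standard transcriptional readouts of BMP signalling. Of these ID2 was higher in treated than in control papillae at 24 and 48 h. ID2 measured 157 and 157 RPKM in treated and 204 and 183 RPKM in control papillae at 0 h. At 24 h the values were 103 and 162 RPKM in treated and 38.6 and 55.1 RPKM in control papillae, and at 48 h they were 130 and 125 RPKM against 49.0 and 46.9 RPKM. At 24 and 48 h each treated library was above each control library, and at 0 h each was below. Between 0 and 48 h the mean went from 157.1 to 127.3 RPKM in treated and from 193.4 to 47.9 RPKM in control papillae. The part of BMP signalling in this was not tested. The fitted differences of ID2 were -0.30 ± 0.29 at 0 h, 1.47 ± 0.29 at 24 h (adjusted p = 0.000897) and 1.39 ± 0.29 at 48 h (adjusted p = 0.00216). The late difference was -0.17 ± 0.18. Over all times ID2 rose by 0.45 ± 0.18 (adjusted p = 0.0494), a call lost under 22 of 35 alternatives, the replicate block among them (0.42, adjusted p = 0.058). ID1 passed at 48 h, with 13.6 and 13.7 RPKM in treated and 4.10 and 3.76 RPKM in control papillae (1.57 ± 0.49, adjusted p = 0.0251), a call lost without any 1 of 4 libraries. ID4 passed in none of the comparisons of treated with control papillae, with a difference of 0.09 ± 0.18 over all times (95% interval -0.29 to 0.47). In ID1 and ID4 replicate 2 was above replicate 1 in each pair, except ID1 at 0 h and the controls at 48 h. At 168 h ID4 held 16.6 and 36.2 RPKM in treated and 18.3 and 46.1 RPKM in control papillae. In ID2 replicate 2 was above replicate 1 in both arms at 24 and 168 h, in controls at 144 h and in treated papillae at 72 and 120 h. It was level or below at 0 and 48 h and in treated papillae at 144 h. At 72 and 120 h only treated papillae had a replicate 2, so this shift enters the unblocked differences of ID1, ID2 and ID4.

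The differences of several members at 24 and 48 h were unlike those at 0 h. The mean of the 24 and 48 h differences was therefore set against the 0 h difference. This comparison was chosen after the values had been seen. In it 4 members were higher and 5 lower, beside 5.57% and 8.21% of all features, and 7 were higher with the replicate block within each time. Leaving out 1 library at a time gave 1 to 5 higher and 3 to 5 lower, with 1 higher without either control library of 0 h, the treated library 1 of 0 h or the control library 1 of 48 h. FST had the most negative value (-2.33 ± 0.40, adjusted p = 0.00143), followed by TGFBR3 (-1.99 ± 0.34, adjusted p = 0.00152) and ACVR1 (-1.18 ± 0.18, adjusted p = 0.000798). ID2 went the other way (1.72 ± 0.36, adjusted p = 0.00477). Of these 4 genes TGFBR3 alone also passed at 0 h. These 4 calls held when any 1 library was left out, whereas those of BMP7, BMPER, ID1, TGFBR2 and BAMBI were each lost without at least 6 libraries in turn. Of 5 supporting cell markers, 4 were higher in this comparison too. BMP4, at -2.20, -1.83 and -2.41 at 0, 24 and 48 h, gave 0.08 ± 0.30.

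The late and the early treatment differences themselves differed in 18 members. In 4, BMP3 among them, the late difference was the higher and in 14 the lower, beside 12.6% and 21.9% of all features. Without BMP3 and BMP5 it was the higher in 3 of 32 members and the lower in 14. FST, at 0.11 late and -1.37 early, and BMP4, at -0.43 late and -2.15 early, had the most positive changes. ID2, TGFB2, BMPR1A, SMAD5 and SMAD3 had the most negative ones, from -1.03 to -0.76. That of TGFB2, -0.89 ± 0.26 (adjusted p = 0.0147), was -0.75 (adjusted p = 0.0584) after rescaling the libraries by the median of ratios. Between the windows 9 members rose and 10 fell in treated papillae, beside 24.8% and 29.9% of all features, and 13 rose and 6 fell in controls, beside 28.7% and 20.3%. Without BMP3 and BMP5, 13 of 32 members rose and 5 fell in controls.

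Single times rest on 1 or 2 libraries an arm and are given as counts, and 23 of the 55 calls at single times remained when any 1 library was left out. At 0 h, 5 members rose and 5 fell, beside 25.5% of all features (14.6% higher and 10.9% lower). At 24 h, 7 rose and 7 fell (36.7% of all features, 18.4% higher and 18.3% lower), and at 48 h 8 rose and 5 fell (27.6%, as 13.8% and 13.9%). Without BMP3 and BMP5, 7 of 32 members rose and 5 fell at 48 h. At 72 h, 2 rose and 7 fell (13.8%, as 6.25% and 7.5%), and the falls of BMPR2, FSTL3 and TGFBR2 were lost with the replicate block within each time. At 96 h, 3 rose and 1 fell (3.93%, as 1.85% and 2.07%). At 120 h no member passed in limma (2.55% of all features did, 0.271% higher and 2.28% lower), while 6 had an unadjusted p under 0.05. At 144 h, 0 rose and 4 fell (5.88%, as 1.58% and 4.3%), and at 168 h SMAD3 alone fell (1.16% of all features passed, 0.123% higher and 1.03% lower). BMP4 passed at 0, 24, 48 and 72 h, BMPER and BMP7 at 24, 48, 72 and 96 h.

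Other genes of the pathway, taken from lists of the wider system, are described by counts. Of 25 further extracellular ligands and regulators tested, 3 rose and 11 fell over all times, beside 20.2% higher and 21.7% lower of all features. The median difference was -0.14, beside 0.01 for all features. The falls with the largest size were those of the microfibril proteins LTBP2 (-1.61 ± 0.16) and FBN1 (-0.75 ± 0.16), of LTBP1 (-0.69 ± 0.15), which binds latent TGF-beta in the matrix, and of the protease TLL1 (-0.72 ± 0.10), which cleaves the BMP antagonist chordin. The rises were ASPN (0.74 ± 0.22), a matrix proteoglycan, MSTN (0.47 ± 0.12), myostatin, and SOSTDC1 (0.30 ± 0.11), a secreted antagonist.

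Of 25 intracellular regulators, 9 rose and 3 fell over all times, beside 20.2% higher and 21.7% lower of all features. At 0 to 48 h, 15 rose and 2 fell, beside 27.6% and 23.5%, and the median difference was 0.31 beside 0.03 for all features. Rises over all times included TGIF1, a co-repressor of SMAD2 (0.64 ± 0.09), USP9X, a deubiquitinase that acts on SMAD4 (0.44 ± 0.10), RNF111, the ubiquitin ligase Arkadia (0.39 ± 0.09), and TRIM33, a ubiquitin ligase for SMAD4 (0.38 ± 0.09). At 0 to 48 h the differences of these 4 genes were 0.86, 0.77, 0.65 and 0.68, and each passed. The falls over all times were the SMAD-binding repressor ZEB2 (-0.39 ± 0.12), the kinase partner TAB1 (-0.34 ± 0.09) and the ubiquitin ligase WWP1 (-0.23 ± 0.07). Of these TAB1 also passed at 0 to 48 h (-0.40), while ZEB2 (0.10) and WWP1 (-0.17) did not. At 120 to 168 h, 2 of the 25 rose and 6 fell, beside 4.31% and 15.1% of all features.

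Of 20 further genes known as targets of TGF-beta or BMP in vertebrates, 2 rose and 9 fell over all times (median -0.28), beside 20.2% higher and 21.7% lower of all features. At 0 to 48 h, 4 rose and 11 fell (median -0.44, beside 27.6% and 23.5%), and at 120 to 168 h 0 rose and 9 fell (median -0.48, beside 4.31% and 15.1%). Over all times FN1, fibronectin, fell by 1.60 ± 0.20 (mean 63.9 RPKM in treated and 161.2 RPKM in control papillae), MSX1 by 1.25 ± 0.20, CTGF by 1.21 ± 0.12 and TAGLN by 1.06 ± 0.19. GATA2 (0.84 ± 0.12) and PRDM16 (0.31 ± 0.12) rose. Of 8 markers of mesenchyme, which also makes FN1 and CTGF, 4 fell and 0 rose at 0 to 48 h. At 120 to 168 h none of the 8 passed in limma (smallest adjusted p = 0.311) and their median difference was 0.10. Of 5 leukocyte markers, 4 fell in that window. FN1 (-1.27 ± 0.32, adjusted p = 0.0097) and CTGF (-1.09 ± 0.14, adjusted p = 6.32e-05) also fell at 120 to 168 h. The part of mesenchyme or of other cell types in these falls was not tested. COL1A1, which stands in both the target and the mesenchyme list, fell early (-1.21 ± 0.27) and did not pass late (0.15 ± 0.29). TAGLN and ACTA2 stand in both the target and the smooth muscle list.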

How the data were processed

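RNA sequencing of 28 basilar papilla samples was analysed from 1 deposited table of RPKM values, computed by the authors. Per the labels' protocols, RNA was isolated with Trizol and libraries were made by Illumina protocols. Per the submitters' processing notes, TopHat 1.4.0 and Partek 6.6 were used, with no roles stated. Genome build, annotation and strandedness are left unstated, that is, not given in the sources used here. In the RefSeq gene table (assembly GRCg7b), 40 members were found by symbol and 1, ACVR1, by synonym, and 11, among them ACVR1, BMP2, BMPR2, NOG, TGFB2, TGFB3 and TGFBR3, overlap another gene, whose reads could not be told apart. With no build given, no positions or sequences are printed.

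Samples were grouped by title. Depth is the number of alignments that the deposited table lists for each sample. The table has 4 further columns that match no sample and were not used. Features with at least 1 RPKM in at least 2 samples were kept (12195). Values of log2(RPKM + 1) entered limma 3.58.1 (R 4.3.3; eBayes with an intensity trend, two-sided tests). For the difference over all times the model had additive terms for time and treatment, leaving 19 residual degrees of freedom. Every other difference is a contrast of group means (12 residual degrees of freedom), and the spread of a lone sample is taken to be that of the paired groups. P-values of the contrasts of group means measure the spread between the samples of a group, which may be partly technical. In the additive fit the residual spread also holds any change of the treatment difference with time. The fit was tested on simulated data with independent noise in each library. Such data hold no pairing by replicate number, so they cannot show how pairing affects the p-values.

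The members, the lists of related genes and the markers were chosen with earlier results of these data known. Members are given with values if they passed over all times, at 0 to 48 h or at 120 to 168 h with a difference of at least 0.5 (log2) and a mean of at least 1 RPKM in an arm. The others, given more briefly, were named after their values were seen. Of each related list, up to 4 passing genes per direction are named. Values of 1 member that was not tested are not reported here. The comparison of 24 and 48 h with 0 h was added after seeing the data.

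Replicate numbers of the labels were checked for pairing: at each time with both numbers in both arms, the change from number 1 to number 2 in treated samples was set against that in controls. Over genes, r was 0.307, 0.291, 0.105, 0.478 and 0.409 at 0, 24, 48, 144 and 168 h. The numbers thus pair the samples in part, least at 48 h. Differences and p-values given here come from fits without this pairing, unless a replicate block is named. With the block within each time, 16 members instead of 20 were called over all times. Early calls were then 22 instead of 21, and late calls 12 instead of 8. The settings varied were a pseudocount of 0.1, no filter, no trend, a replicate block, rescaling by the median of ratios, narrower windows, only the samples compared, no 72, 96 and 120 h, and leaving out each library.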

Additional observations from a re-analysis of the deposited data

Results flagged for a closer look

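For 18 members the treatment difference at 120 to 168 h differed from that at 0 to 48 h by limma's test of the difference itself (Benjamini-Hochberg adjusted p under 0.05), beside 34.5% of all features, whose median change was -0.12. The change, late minus early on the log2 scale, was positive for BMP4 (1.72), FST (1.49), SMAD9 (0.742) and BMP3 (0.597). BMP3 was kept for testing through treated libraries only. It was negative for ID2 (-1.03), TGFB2 (-0.888), BMPR1A (-0.853), SMAD5 (-0.796), SMAD3 (-0.762), BMPER (-0.742), ACVR1B (-0.684), BMPR2 (-0.654), BMP7 (-0.639), SMAD2 (-0.576), TGFB3 (-0.552), SMAD1 (-0.471), BMP2K (-0.394) and TGFBR1 (-0.344). Rescaling by the median of ratios moved the median over all features to about 0, and the calls of TGFB2, SMAD1, BMP2K and TGFBR1 were then lost.

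For 9 members the mean difference at 24 and 48 h differed from the difference at 0 h, beside 13.8% of all features. This comparison was chosen after the values had been seen, so its p-values are no independent test. Leaving out 1 library of 0 h left 4 or 5 members called. The change was negative for FST (-2.33), TGFBR3 (-1.99), ACVR1 (-1.18), TGFBR2 (-1.13) and BAMBI (-0.588). It was positive for ID1 (1.94), ID2 (1.72), BMPER (1.04) and BMP7 (0.855). No group had enough samples to look for a single outlying library.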

How the results depend on the processing

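No called member changed its sign under any alternative run. Of 114 calls in the comparisons over several times, 85 remained without each library in turn and 79 under every alternative. Those of BMP4, BMPER, ACVR1, SMAD7, SMAD9 and TGFB2 at 0 to 48 h, and of BMP2, BMPR2, SMAD3 and SMAD7 at 120 to 168 h, are among them. Without 72, 96 and 120 h, BMPR2 (-0.24, adjusted p = 0.078) and SMAD3 (-0.28, adjusted p = 0.0943) no longer passed over all times. Late rises numbered 1, but 2 after median-of-ratios rescaling and 0 on 144 and 168 h only. Late falls numbered 7, but 11 with the replicate block within each time and 4 with only the samples compared. In the comparison of 24 and 48 h with 0 h, 4 members were higher, but 1 with no filter and 7 with the replicate block within each time. Leaving out 1 library at a time gave 4 to 9 rises and 11 to 13 falls over all times, 9 to 11 and 8 to 11 early, 0 to 2 and 4 to 8 late, 3 to 5 and 11 to 14 for the late minus early difference, and 1 to 5 and 3 to 5 for 24 and 48 h minus 0 h. Between the windows it gave 7 to 10 rises and 10 to 11 falls in treated papillae and 11 to 13 and 4 to 7 in controls, and summed over single times 18 to 26 and 25 to 32, against 25 and 30. Beside the calls given with it above, the replicate block gained that of BMP2K over all times (0.17, adjusted p = 0.044), ID1 early (0.31, adjusted p = 0.0265) and FSTL1 and TGFBR2 late (-0.42 and -0.36, adjusted p = 0.0357 and 0.048). For late minus early it gained ACVR1 and NOG in the treatment difference, ID1, SMAD7, TGFBR2 and TGFBR3 in treated papillae and FSTL3, ID4, SMAD2 and SMAD7 in controls, and lost BMP2K in treated papillae and BMPR2 in controls. For 24 and 48 h minus 0 h it gained ID4, INHBA and TGFB2. In the comparisons over several times it changed no other call. The cause of these changes was not tested. RPKM carries no read counts, so what depth allows for genes under 1 RPKM is unknown.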
